A study of Homo sapiens with 6 samples.

Results

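The matrix metalloproteinases (MMP), the ADAM and ADAMTS proteases and the tissue inhibitors of metalloproteinases (TIMP) were examined in NCI-N87 cells, an established human gastric carcinoma line, with and without knockdown of SCAMP1, a membrane protein of the endocytic recycling network. The rule for membership used gene names only. All protein-coding genes called MMP, ADAM, ADAMTS or TIMP followed by a number were taken, which gave 66 of the 58735 genes in the expression table: 23 MMP, 20 ADAM, 19 ADAMTS and 4 TIMP genes on 20 chromosomes. The comparison asks how depletion of SCAMP1 changes the expression of this protease system. RNA-seq was available for 3 libraries of cells infected with a control lentivirus (shNC) and 3 libraries of cells infected with a lentivirus carrying a SCAMP1 short hairpin RNA (shScamp1). Both groups were NCI-N87 cells selected as stable pools with puromycin at 2 μg/ml, and RNA was taken near confluence. The methods of the study call the sequenced populations shCtrl, which is the empty pSIH-H1-puro vector, and shS1#1. The shScamp1 group therefore rests on 1 hairpin in 1 cell line, and a second hairpin was not analysed here. The labels call the replicates biological, and no source says whether they came from separate infections, so p-values measure only the spread between these libraries. The study lists RNA-seq among the exceptions to its statement that experiments were repeated independently.

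These proteases cut proteins at and outside the cell surface with a zinc ion in the active site. MMPs degrade collagens and other matrix proteins and are secreted or anchored in the membrane. ADAMs are membrane proteins, and those with an intact active site release growth factors, receptors and adhesion molecules from the cell surface, a process called ectodomain shedding. ADAMTS proteases are secreted and process procollagens, proteoglycans and von Willebrand factor, while TIMPs bind to the active site of these enzymes and block it. In carcinomas much of the secreted MMP is known to come from fibroblasts and leukocytes of the stroma, which a culture of a cell line does not contain.

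The libraries held 15064905 to 15988700 reads on genes in shNC and 14311769 to 14667628 in shScamp1. SCAMP1 (ENSG00000085365) was at 12.6, 12.1 and 11.5 FPKM in the shNC libraries and at 1.70, 1.37 and 1.99 FPKM in the shScamp1 libraries, so all 6 libraries matched their labels. FPKM is the number of sequenced fragments on a gene, scaled to its length and to the size of the library. SCAMP1 had a log2 fold change of −2.78 (SE 0.14, limma with Benjamini-Hochberg adjusted p = 0.000248), and of −2.65 without shScamp1 replicate 2. That replicate stood apart from the other libraries of its group. Its mitochondrial share of reads was 9.21%, against 6.09% to 6.78% in the other 5 libraries, and it was the farthest of the 3 shScamp1 libraries from the remaining pair in 63.0% of the genes tested and in 12 of the 14 metalloproteinase and TIMP genes tested. Test results of single genes below are therefore also given without it, except for MMP24 and ADAM23, which have no such test.

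The RNA of the culture was that of epithelial cells. All 11 epithelial markers passed the filter on low expression, which required 0.5 FPKM or more on average across all 6 libraries, and 10 of them were at 1 FPKM or more. Their summed level was 5818 to 6113 FPKM in shNC and 9866 to 10834 FPKM in shScamp1, and 8 of the 11 were higher in shScamp1 at an adjusted p under 0.05 (limma), beside 8.82% of all genes tested, and 8 passed without shScamp1 replicate 2. The part of this rise in the results below was not tested. Of 9 fibroblast markers 1 passed the filter, and PDGFRA, COL1A2, LUM and DCN had 0 reads. The fibroblast markers summed to 0.554 to 0.718 FPKM in shNC and to 0.644 to 0.851 FPKM in shScamp1. No marker of leukocytes (6 genes) or endothelial cells (5 genes) passed the filter. Leukocyte markers summed to 0.410 to 0.736 FPKM in shNC and 0.517 to 0.687 FPKM in shScamp1, and endothelial markers to 0.201 to 0.316 and 0.566 to 0.719 FPKM. Most of the endothelial sum was VWF, at a mean of 0.172 FPKM in shNC and 0.444 FPKM in shScamp1, while PECAM1 and KDR had at most 1 read in a library. In RNA from a whole culture, fewer cells of a type and less RNA per cell cannot be told apart.

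Most of these genes were silent or nearly so in NCI-N87 cells. Of the 66 genes, 14 passed the filter and were tested, 14 more had at least 10 reads in some library, 28 had 1 to 9 reads at most, and 10 had 0 reads in all 6 libraries. Those 10 were MMP8, MMP26, MMP27, ADAM2, ADAM7, ADAM18, ADAM30, ADAMTS3, ADAMTS5 and ADAMTS20, and a count of 0 allows up to 3 reads in a library, or 0.0199 to 0.168 FPKM depending on gene length and library (counting error only). The tested genes were 4 MMPs (MMP14, MMP15, MMP24 and MMP28), 6 ADAMs (ADAM8, ADAM9, ADAM10, ADAM15, ADAM17 and ADAM19), ADAMTS13, ADAMTS14, TIMP1 and TIMP2. Of these, 13 passed the filter in each group taken alone, and MMP24 passed only through the shScamp1 libraries, with a mean of 0.483 FPKM in shNC.

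**Figure D1:**
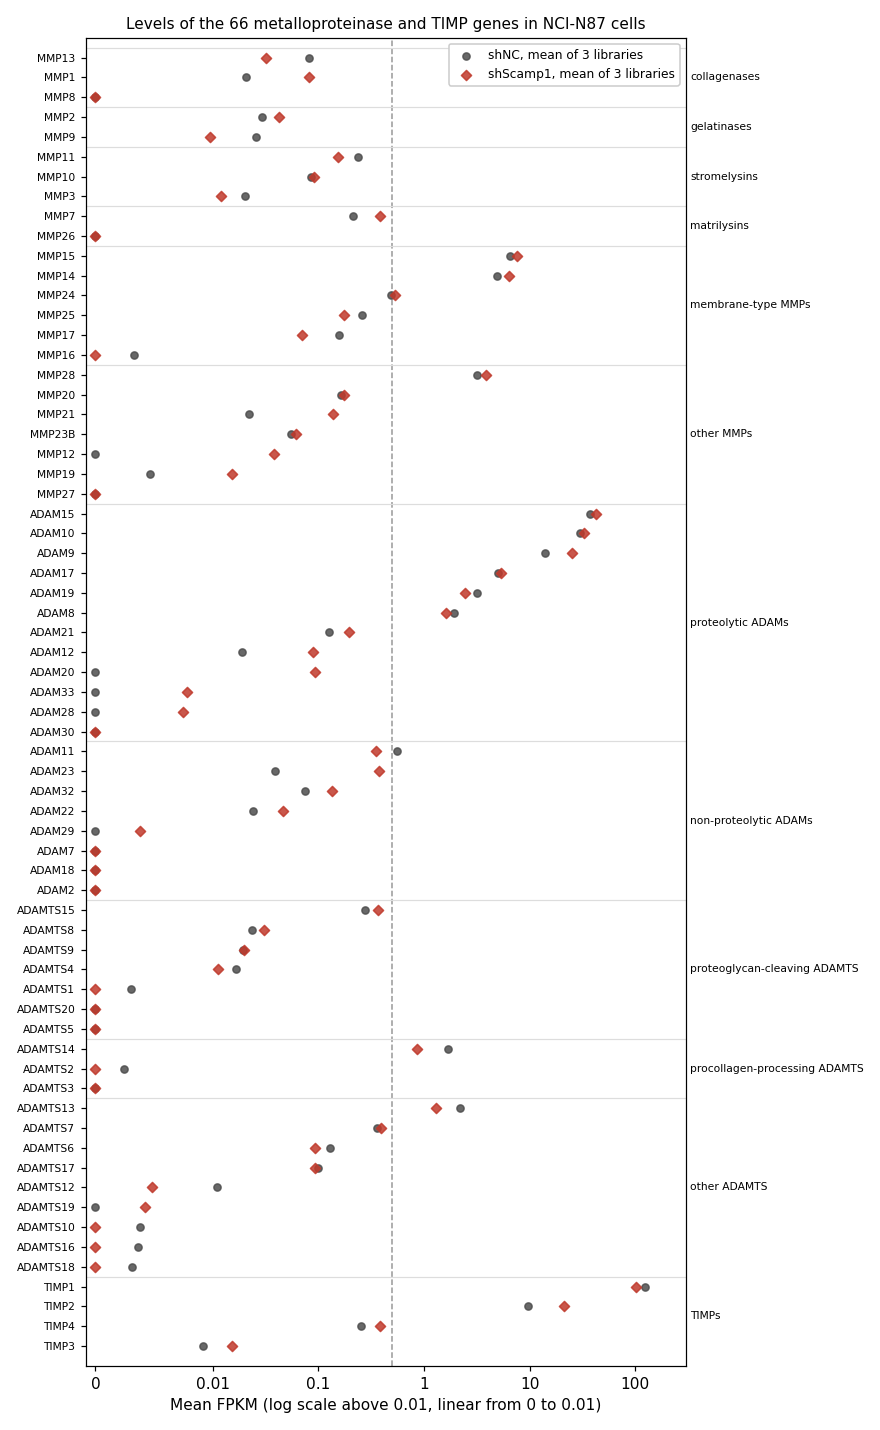
Mean FPKM of all 66 genes in the 3 shNC libraries (grey circles) and the 3 shScamp1 libraries (red diamonds), by role, on an axis that is logarithmic above 0.01 FPKM. The dashed line marks the filter at 0.5 FPKM, and the 14 tested genes lie near it or to its right, with TIMP1 above 100 FPKM and ADAM15, ADAM10 and ADAM9 next among the proteases.

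The secreted enzymes that cut fibrillar collagen, gelatin and other matrix proteins were near the detection limit. The 10 collagenases, gelatinases, stromelysins and matrilysins had at most 21 reads in a library, and their summed level was 0.711 ± 0.0923 FPKM in shNC and 0.799 ± 0.283 FPKM in shScamp1 (SD, n = 3). For comparison, the 6 membrane-type MMPs summed to 12.3 ± 0.476 FPKM in shNC. Among collagenases, MMP13 had 1, 3 and 7 reads in shNC and 3, 0 and 1 in shScamp1. MMP2, a gelatinase, had 0, 5 and 2 reads in shNC and 6, 1 and 2 in shScamp1. MMP11, a stromelysin that furin activates inside the cell, had 21, 16 and 21 reads in shNC and 18, 7 and 9 in shScamp1. MMP7, the matrilysin of epithelial cells, had 7, 10 and 7 reads in shNC and 15, 8 and 15 in shScamp1. The groups overlapped for each of these 4 genes.

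Of the secreted MMPs, 9 lie in a single stretch of 435 kb on chromosome 11 (chr11:102520508-102955734, hg38), in the order MMP7, MMP20, MMP27, MMP8, MMP10, MMP1, MMP3, MMP12 and MMP13. None of the 9 passed the filter, none had more than 15 reads in a library, and MMP8 and MMP27 had 0 reads throughout. Promoters, defined as 250 bases before to 50 bases after the start site, were matched for 39 of the 66 genes in RefSeq (GRCh38.p14), 5 of them in this cluster. The letters TGANTCA, a loose form of the TGACTCA or TGAGTCA site of AP-1 transcription factors (dimers of FOS and JUN proteins) that was searched on both strands, were present in 3 of these 5 promoters and in 7.71% of all 35116 promoters. They were present in 0 of the 11 promoters of tested genes and in 4 of the 28 promoters of genes not tested, the fourth being ADAMTS12. The 3 cluster sites are shown because these promoters carry the motif in a region with hardly any reads. They are written 5′ to 3′ on the minus strand, on which these genes lie, with the motif in capitals, at chr11:102530797-102530825 for MMP7, chr11:102625427-102625455 for MMP20 and chr11:102780678-102780706 for MMP10:

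MMP7: aaacactcaaaTGAGTCAcctatttccac

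MMP20: tgtttgagacaTGAATCAtccttgctcgg

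MMP10: aaacacatgcaTGAATCAtactgttggtg

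Of the 3 sites, that of MMP7 has the AP-1 letters themselves, while those of MMP20 and MMP10 match only the loose form. The first base of the motif lies 67, 112 and 67 bases before the start site. The letters TATAAA, on either strand (TTTATA on the other), a form of the TATA box, were chosen after the sequences had been seen. They were in 4 of the 5 cluster promoters, 0 of the 11 promoters of tested genes, 8 of the 28 of genes not tested and 11.5% of all promoters. The cluster promoters held 2 to 4 CG pairs in 300 bases, the promoters of tested genes a median of 30 (7 to 44), those of genes not tested a median of 22.5 (0 to 47), and all promoters a median of 14. These are matches of letters and do not show that a factor binds there.

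Among the 14 tested genes, ADAM9 and TIMP2 changed with SCAMP1 knockdown, and both were higher in shScamp1. They make 2 of 14 genes at an adjusted p under 0.05, beside 14.0% of all 15556 genes tested, so the share of changed genes was near that of the whole transcriptome. In the direction of higher expression the background was 8.82%. In the direction of lower expression 0 of the 14 passed, with a background of 5.17%, although 6 of the 14 had an unadjusted p under 0.05 in limma in either direction, beside 30.7% of all genes. With an absolute log2 fold change above 1 as well, only TIMP2 passed, and 3.16% of all genes did. The study used the same fold change with p under 0.05 and states no adjustment. The median log2 fold change of the 14 genes was 0.11, beside −0.02 over all genes tested. The levels of the groups did not overlap for 9 of the 14 (6 higher and 3 lower in shScamp1) and for 41.4% of all genes tested. This count depends on the scaling between libraries, since with scaling by total reads it was 7 of the 14. No share of all genes is at hand for that scaling. Without shScamp1 replicate 2, 7 of 13 genes passed, with MMP14 and MMP28 added on the higher side and ADAM19, ADAMTS13 and ADAMTS14 on the lower side, while the background rose to 28.3%.

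**Figure D2:**
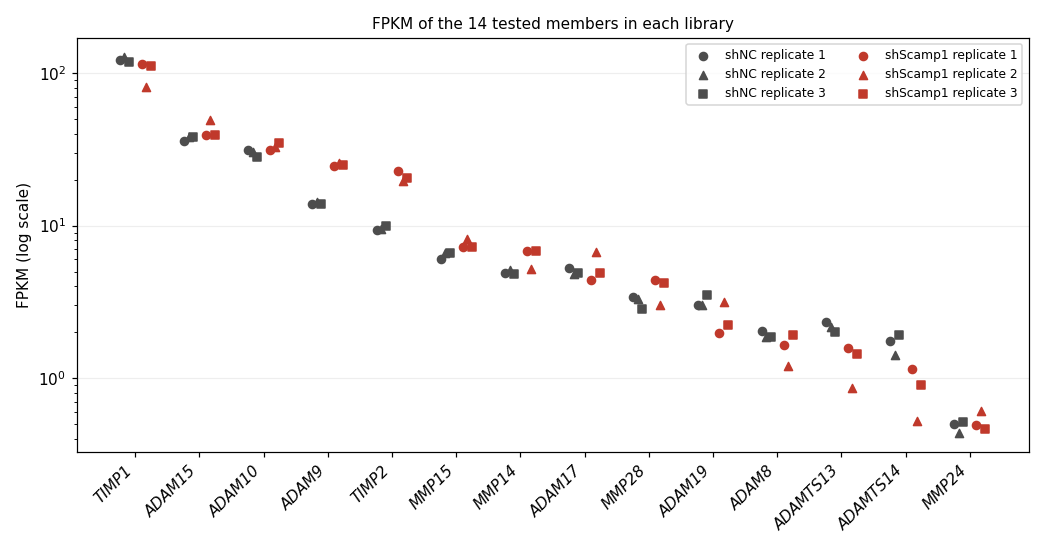
FPKM of the 14 tested genes in each of the 6 libraries on a log axis, shNC in grey and shScamp1 in red, with circles, triangles and squares for replicates 1, 2 and 3. The 3 shScamp1 libraries lie together well above shNC for ADAM9 and TIMP2, while shScamp1 replicate 2 (red triangle) lies apart for genes such as TIMP1, MMP14 and ADAMTS14.

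ADAM9 (ENSG00000168615, chr8:38996869-39105144, plus strand) encodes a widely expressed membrane-bound sheddase. Its level was 13.9, 14.4 and 13.8 FPKM in the shNC libraries and 24.7, 25.7 and 25.0 FPKM in the shScamp1 libraries, or 14.0 ± 0.313 against 25.2 ± 0.526 FPKM (SD, n = 3). The libraries of each group lay close together and the groups were far apart. The log2 fold change was 0.84 (SE 0.06, 95% interval 0.70 to 0.98, limma with Benjamini-Hochberg adjusted p = 0.000696), a ratio of means of 1.80. Without shScamp1 replicate 2 it was 0.82 (limma, adjusted p = 0.000166). Each value rested on 1471 to 2533 reads, and no exon of ADAM9 overlaps an exon of another gene in GENCODE 29. ADAM32, ADAM18 and ADAM2 lie in the same stretch of the chromosome. ADAM32 had 16, 7 and 13 reads in shNC and 17, 30 and 10 in shScamp1, while ADAM18 and ADAM2 had 0.

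TIMP2 (ENSG00000035862, chr17:78852977-78925387, minus strand) inhibits MMPs and also takes part in the activation of pro-MMP2 at the cell surface by MMP14. Its level was 9.42, 9.47 and 9.93 FPKM in shNC and 22.8, 19.6 and 20.4 FPKM in shScamp1, or 9.61 ± 0.282 against 20.9 ± 1.64 FPKM (SD, n = 3). Every shScamp1 library was above every shNC library, and replicate 2 was the lowest of the 3 without standing apart. The log2 fold change was 1.11 (SE 0.08, 95% interval 0.93 to 1.30, limma with Benjamini-Hochberg adjusted p = 0.000696), a ratio of means of 2.18, and it was 1.16 without shScamp1 replicate 2 (limma, adjusted p = 0.000217). An exact permutation test over the 6 libraries gave p = 0.1 for TIMP2 as for ADAM9, the smallest value that 3 against 3 libraries allow. TIMP2 shares 198 exonic bases, 3.52% of its exons, with CEP295NL, which had 6 to 19 reads, beside 841 to 1873 for TIMP2.

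**Figure D3:**
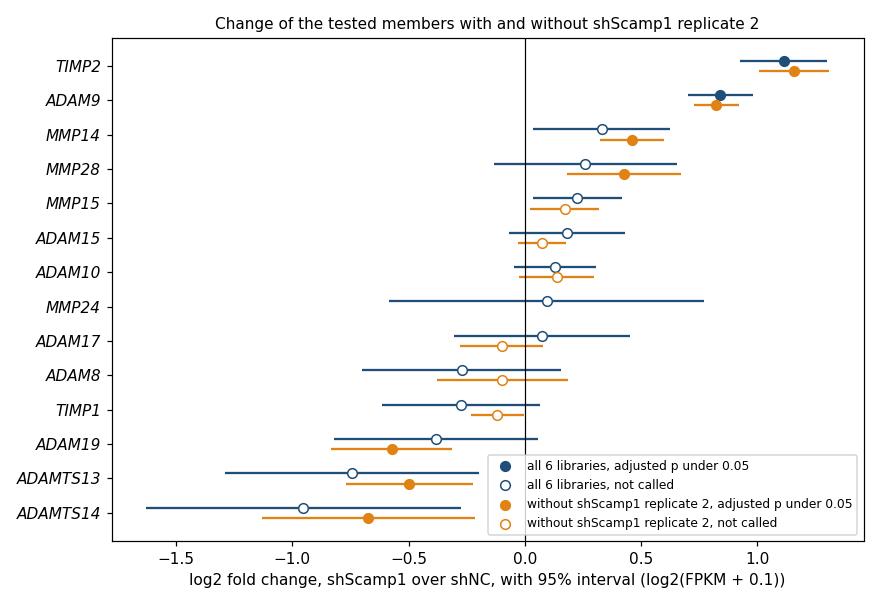
Log2 fold change of each tested gene, shScamp1 over shNC on log2(FPKM + 0.1), with its 95% interval, from all 6 libraries (blue) and without shScamp1 replicate 2 (orange), filled where the adjusted p was under 0.05. ADAM9 and TIMP2 are filled in both, 5 genes are filled only without that library, and MMP24 fell below the filter there.

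Of the other TIMPs, TIMP1, a secreted inhibitor with growth-promoting activity of its own, was the most abundant of the 66 genes. It was at 121, 128 and 118 FPKM in shNC and 115, 81.3 and 111 FPKM in shScamp1, with replicate 2 far below the rest and the groups not overlapping. The log2 fold change was −0.28 (95% interval −0.62 to 0.07, limma, adjusted p = 0.241), and −0.12 without that replicate (adjusted p = 0.114). TIMP4 had 1, 11 and 8 reads in shNC and 6, 6 and 15 in shScamp1, and TIMP3, which binds to the matrix and inhibits ADAM17, had 2 and 3 reads in all. The summed level of the TIMPs was 132 ± 5.05 FPKM in shNC and 124 ± 19.7 FPKM in shScamp1, and 101 FPKM in replicate 2.

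Ratios between genes were also taken within each library, as a description, since each of the first 3 contains ADAM9 or TIMP2 and restates their change. TIMP1 was at 12.8, 13.5 and 11.9 times the level of TIMP2 in shNC and at 5.05, 4.14 and 5.43 times in shScamp1. The ratio of TIMP2 to MMP14 was 1.94, 1.84 and 2.05 in shNC and 3.32, 3.78 and 2.99 in shScamp1. ADAM9 was at 0.447, 0.471 and 0.486 of the level of ADAM10 in shNC and at 0.792, 0.791 and 0.720 in shScamp1. For these 3 ratios the groups did not overlap, replicate 2 included. The ratio of ADAM10 to ADAM17 was 6.02 ± 0.268 in shNC and 6.36 ± 1.29 in shScamp1 (SD, n = 3), with overlap.

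**Figure D4:**
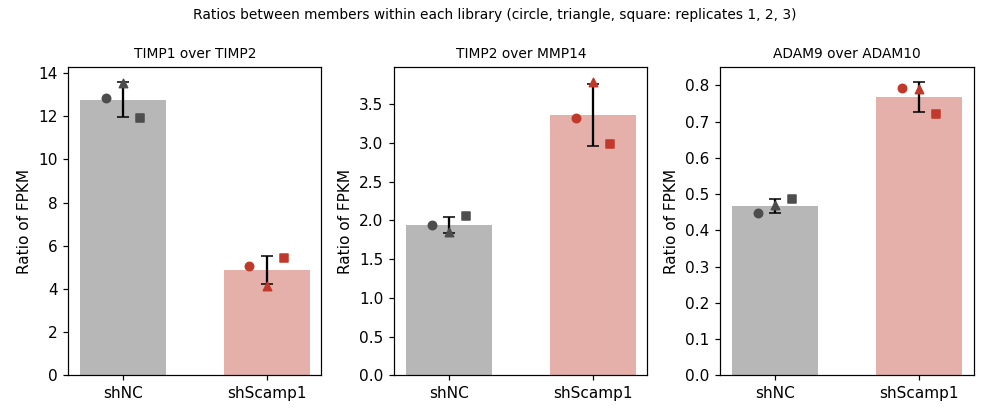
Ratios of FPKM within each library (points, with circle, triangle and square for replicates 1, 2 and 3), with bars for the mean of 3 libraries and error bars for the SD. TIMP1 over TIMP2 falls from 12.8 to 4.87, TIMP2 over MMP14 goes from 1.94 to 3.36 and ADAM9 over ADAM10 from 0.468 to 0.768, with no overlap of the groups.

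The membrane-anchored MMPs were the main MMPs of these cells, and none of the MMPs passed the test over all libraries. MMP15 was the most abundant of the MMPs, at 6.08, 6.63 and 6.65 FPKM in shNC and 7.28, 8.13 and 7.27 FPKM in shScamp1, without overlap (log2 fold change 0.22, limma, adjusted p = 0.114, and 0.17 with adjusted p = 0.0863 without replicate 2). MMP14, the main activator of pro-MMP2 and a collagenase of the cell surface, was at 4.86, 5.14 and 4.84 FPKM in shNC. In shScamp1 it was at 6.86, 5.19 and 6.83 FPKM, so that replicate 2 sat just above the shNC range and the other libraries well above it. Its log2 fold change was 0.33 (95% interval 0.03 to 0.62, limma, adjusted p = 0.127) and 0.46 without replicate 2 (adjusted p = 0.00306). MMP28, the secreted epilysin of epithelia, was at 3.42, 3.32 and 2.83 FPKM in shNC and 4.41, 3.02 and 4.21 FPKM in shScamp1, with replicate 2 inside the shNC range and the other libraries above it. Its log2 fold change was 0.26 (limma, adjusted p = 0.328), 0.43 without replicate 2 (adjusted p = 0.0261) and 0.16 without replicate 1 (adjusted p = 0.556). MMP24 had 30 to 37 reads and a log2 fold change of 0.09 (95% interval −0.58 to 0.77, limma, adjusted p = 0.848). Since 18.1% of its exonic bases lie opposite exons of MMP24OS, which had 163 to 216 reads, and no source states strand-specific counting, reads in the shared stretch cannot be told apart from those of that gene. Below the filter, MMP25 had 13, 19 and 19 reads in shNC and 6, 12 and 13 in shScamp1. MMP17, another membrane-type MMP, had 8, 13 and 9 against 2, 4 and 6, the groups not overlapping.

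The proteolytic ADAMs had the highest levels of the proteases. ADAM15, a disintegrin protease of epithelial and endothelial cells, was at 35.7, 38.1 and 38.0 FPKM in shNC and 39.3, 49.0 and 39.2 FPKM in shScamp1. Replicate 2 was far above the rest and the groups did not overlap, but the log2 fold change of 0.18 had an adjusted p of 0.284 in limma and fell to 0.07 without that library (adjusted p = 0.242). ADAM10, the sheddase of NOTCH receptors and E-cadherin, was at 31.1, 30.5 and 28.4 FPKM in shNC and 31.2, 32.5 and 34.8 FPKM in shScamp1. Its log2 fold change was 0.13 with a 95% interval of −0.04 to 0.31 (limma, adjusted p = 0.274), and 0.14 without replicate 2 (adjusted p = 0.180). ADAM17, the sheddase of TNF and of EGFR ligands, was at 5.25, 4.82 and 4.87 FPKM in shNC and 4.43, 6.69 and 4.86 FPKM in shScamp1, with overlap. Its log2 fold change was 0.07 (95% interval −0.31 to 0.45, limma, adjusted p = 0.786) and turned to −0.10 without replicate 2 (adjusted p = 0.352). Exons of IAH1 on the opposite strand, with 209 to 370 reads, cover 12.3% of its exonic bases. The summed level of the ADAMs was 92.2 ± 1.07 FPKM in shNC and 111 ± 7.86 FPKM in shScamp1 (SD, n = 3), where replicate 2 was the highest at 120 FPKM.

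ADAM19 and ADAM8 were the proteolytic ADAMs with lower means in shScamp1. ADAM19, which takes part in neuregulin shedding, was at 3.02, 3.01 and 3.51 FPKM in shNC and 1.98, 3.18 and 2.23 FPKM in shScamp1, where replicate 2 lay within the shNC range. The log2 fold change was −0.38 (limma, adjusted p = 0.211), −0.57 without replicate 2 (adjusted p = 0.0126) and −0.25 without replicate 1 of shScamp1 (adjusted p = 0.375). ADAM8 was at 2.03, 1.86 and 1.86 FPKM in shNC and 1.65, 1.21 and 1.93 FPKM in shScamp1 (log2 fold change −0.27, limma, adjusted p = 0.347, and −0.10 with adjusted p = 0.576 without replicate 2). ADAM12, below the filter, had 3, 4 and 2 reads in shNC and 5, 23 and 9 in shScamp1, most of the difference lying in replicate 2. ADAM20 and ADAM21, closely related neighbours on chromosome 14, had 0 and 16 reads over shNC and 11 and 22 over shScamp1, and reads of such paralogs may be assigned to either.

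The ADAMs without an active site, which act in adhesion, were all below the filter. ADAM11 was the most abundant of them over all 6 libraries, though ADAM23 had the higher mean in shScamp1. ADAM11 had 48, 35 and 43 reads in shNC and 26, 19 and 27 in shScamp1, or 0.553 ± 0.101 against 0.350 ± 0.0519 FPKM (SD, n = 3). ADAM23, a partner of the secreted neuronal protein LGI1, had 2, 6 and 4 reads in shNC and 37, 26 and 40 in shScamp1. The 3 shScamp1 libraries were each several times above every shNC library, at a mean of 0.372 ± 0.0679 against 0.0387 ± 0.0183 FPKM. With no filter, the 3 genes that passed were ADAM9, TIMP2 and ADAM23, beside 4.81% of the 33572 genes with a read. The log2 fold change of ADAM23 was 1.77 there (limma, adjusted p = 0.0265), which the pseudocount of 0.1 FPKM makes smaller than the ratio of the means, 9.62. A filter at 0.1 FPKM also gave 3 genes, of 27 tested and beside 8.06% of all genes, but ADAM23 gets past that filter only through its shScamp1 level and had to differ to be included, so that count supports nothing about it. ADAM22 had 7, 5 and 2 reads in shNC and 5, 13 and 6 in shScamp1.

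Both tested ADAMTS genes had lower means in shScamp1, and neither passed over all libraries. ADAMTS14 (chr10:70672803-70762441, plus strand), which removes the amino-terminal propeptide of procollagen, was at 1.75, 1.42 and 1.92 FPKM in shNC and 1.16, 0.527 and 0.895 FPKM in shScamp1. ADAMTS13 (chr9:133414358-133459402, plus strand), which cleaves von Willebrand factor, was at 2.33, 2.16 and 2.01 FPKM in shNC and 1.57, 0.857 and 1.44 FPKM in shScamp1. For both genes every shScamp1 library was below every shNC library and replicate 2 was the lowest. The log2 fold change of ADAMTS14 was −0.95 (SE 0.28, 95% interval −1.63 to −0.27, limma, adjusted p = 0.0735), and −0.67 without replicate 2 (adjusted p = 0.0440). For ADAMTS13 it was −0.74 (95% interval −1.29 to −0.20, limma, adjusted p = 0.0791), and −0.50 without replicate 2 (adjusted p = 0.0232). Leaving that library out made both differences smaller and brought both under the threshold. The summed level of the 19 ADAMTS genes was 4.81 ± 0.118 FPKM in shNC and 3.16 ± 0.729 FPKM in shScamp1 (SD, n = 3), where replicate 2 was the lowest at 2.34 FPKM. ADAMTS15, a protease of proteoglycans, had 17, 34 and 24 reads in shNC and 28, 30 and 32 in shScamp1. ADAMTS7 had 39, 54 and 41 against 48, 35 and 47 reads, and its pseudogene copies may make these counts uncertain, which was not tested. ADAMTS6 had 16, 26 and 11 against 11, 11 and 12 reads, and ADAMTS17 had 13, 12 and 14 against 7, 11 and 15. The groups of these 4 overlapped.

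Of the 52 genes not tested 42 had a read, and the groups did not overlap for 8 of these, beside 11.2% of all untested genes with a read. They were MMP1, MMP17, MMP21, ADAM11, ADAM12, ADAM20, ADAM21 and ADAM23. MMP1 had 1, 1 and 0 reads in shNC and 3, 1 and 3 in shScamp1, and MMP21 had 2, 0 and 0 against 2, 7 and 2. For both genes the highest shNC library and the lowest shScamp1 library had the same number of reads. Their lack of overlap in FPKM (0.0320 against 0.0371 for MMP1, 0.0657 against 0.0712 for MMP21) thus came from the scaling between libraries. The same held for ADAM21, at 6 reads and 0.142 against 0.155 FPKM. With tested and untested genes together, the groups did not overlap for 17 of the 56 genes with a read, beside 25.2% of all genes with a read.

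Other genes of the system were taken from lists of regulators and activators, transcription factors, substrates and related peptidases. Of 26 regulators and activators 18 were tested, and PLAT and FURIN were higher and ADAMTSL5 and TSPAN5 lower in shScamp1 (4 of 18, or 22.2%, median log2 fold change 0.05). Without replicate 2, 9 of the 18 passed. PLAT, tissue plasminogen activator, which generates plasmin, a protease that activates pro-MMPs, was at 1.01, 1.06 and 0.871 FPKM in shNC and 10.1, 8.54 and 9.97 FPKM in shScamp1. Its log2 fold change was 3.16 (SE 0.11, limma with Benjamini-Hochberg adjusted p = 0.000165), and 3.23 without replicate 2. FURIN, the convertase that activates membrane-type MMPs and ADAMs, went from 62.5 ± 1.43 to 87.4 ± 2.57 FPKM (log2 fold change 0.48, limma, adjusted p = 0.00511, and log2 fold change 0.50 without replicate 2). ADAMTSL5, an ADAMTS-like matrix protein without protease activity, fell from 3.53 ± 0.210 to 2.01 ± 0.248 FPKM (log2 fold change −0.79, limma, adjusted p = 0.00808, and log2 fold change −0.71 without replicate 2). TSPAN5, a tetraspanin that directs ADAM10 to the cell surface, fell from 1.80 ± 0.116 to 1.07 ± 0.130 FPKM (log2 fold change −0.71, limma, adjusted p = 0.0206, and log2 fold change −0.80 without replicate 2). RECK, a membrane-anchored inhibitor of MMPs, had 0 reads.

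All 14 AP-1 and ETS transcription factors, which are known to act on many MMP promoters, were tested, and FOSL2, ETV4, ETS1 and ETS2 were higher in shScamp1 (28.6%, median log2 fold change 0.28, 7 of 14 without replicate 2). FOSL2 went from 27.1 ± 0.353 to 37.2 ± 2.89 FPKM (log2 fold change 0.46, limma, adjusted p = 0.0123, and log2 fold change 0.39 without replicate 2). ETV4, ETS1 and ETS2 had log2 fold changes of 0.30, 0.50 and 0.27 (limma, adjusted p = 0.0300, 0.0303 and 0.0336), and of 0.33, 0.43 and 0.28 without replicate 2. None of the 14 passed the test on the lower side.

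Of 41 substrates of ADAM10 and ADAM17, 27 were tested. In shScamp1 9 of these were higher and 2 were lower (40.7%, median log2 fold change 0.27), and 16 passed without replicate 2. The EGFR ligands EREG and TGFA had the smallest p-values. EREG was at 3.28, 3.90 and 3.11 FPKM in shNC and 9.35, 10.6 and 10.4 FPKM in shScamp1 (log2 fold change 1.54, limma, adjusted p = 0.000696, and log2 fold change 1.51 without replicate 2). TGFA was at 15.3, 14.7 and 13.4 FPKM in shNC and 29.7, 33.0 and 29.0 FPKM in shScamp1 (log2 fold change 1.07, limma, adjusted p = 0.000984, and log2 fold change 1.02 without replicate 2). The syndecan SDC4, the amyloid-precursor-like APLP2 and the TNF receptor TNFRSF1A were higher, with log2 fold changes of 0.74, 0.36 and 0.32 (limma, adjusted p = 0.0123, 0.0140 and 0.0173), and of 0.61, 0.33 and 0.34 without replicate 2. CD44, the hyaluronan receptor, fell from 9.93 ± 0.376 to 7.38 ± 0.573 FPKM (log2 fold change −0.43, limma, adjusted p = 0.0189, and log2 fold change −0.49 without replicate 2). Among the other zinc endopeptidases 3 of 13 genes were tested, and BMP1, a procollagen C-proteinase, was higher, with a log2 fold change of 0.44 (limma, adjusted p = 0.0358), and of 0.48 without replicate 2. These 4 lists are described by their counts beside the background, which was 14.0% over all libraries and 28.3% without replicate 2, and were not tested as sets. The background holds genes of every biotype, while the lists hold protein-coding genes only. With protein-coding genes only in the fit, 28 genes of the lists passed, beside 22.8% of all genes tested. All 20 genes of the lists that passed in the main fit also passed, in the same direction, without replicate 2. Only 5 genes of the lists passed without any one of the shNC libraries, where 5.25% to 5.51% of all genes passed. It was 7 without shScamp1 replicate 3 (6.61% of all genes), 13 without shScamp1 replicate 1 (11.6%) and 6 with the replicate number as a block (6.16%). Protein shedding was not measured.

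**Figure D5:**
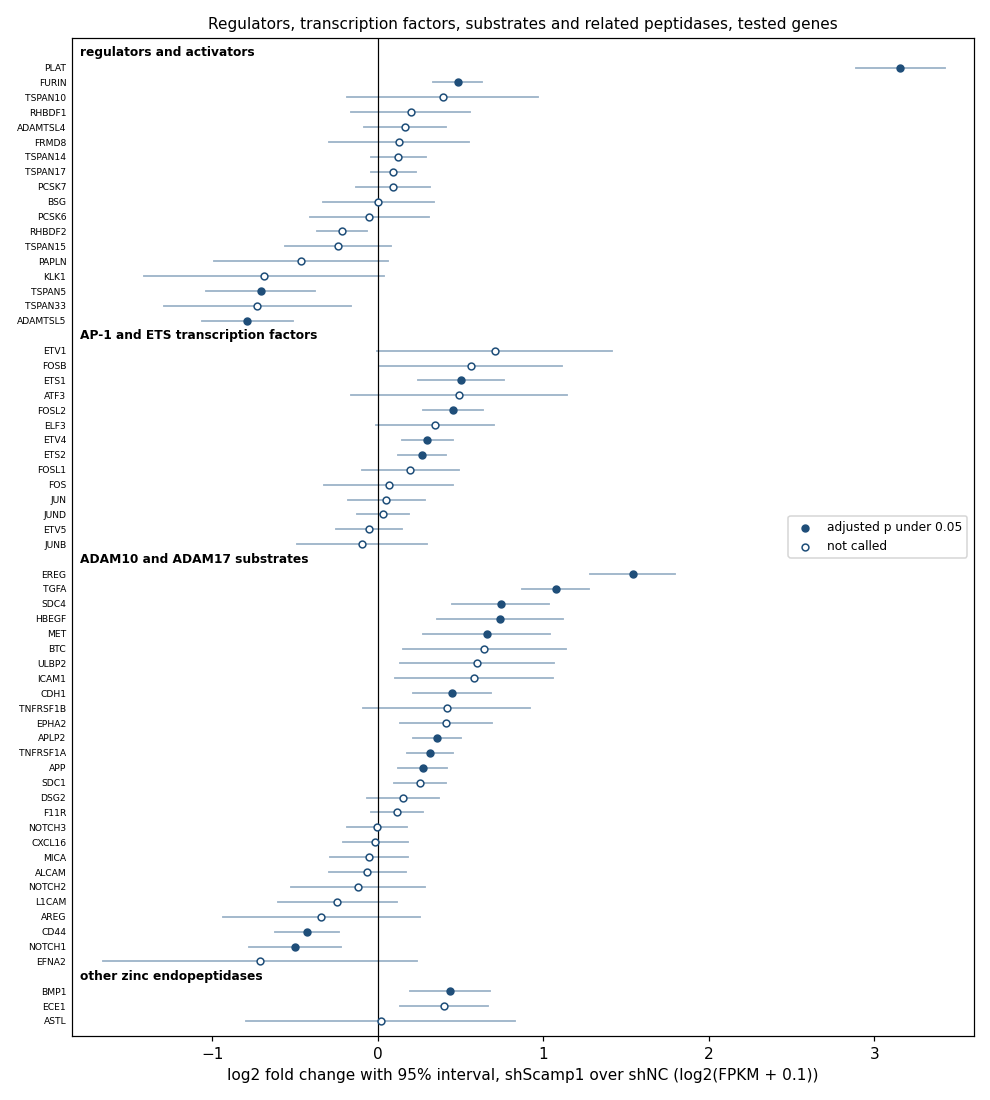
Log2 fold change of every tested gene of the 4 lists, shScamp1 over shNC on log2(FPKM + 0.1), with its 95% interval, filled where the adjusted p was under 0.05. PLAT stands far to the right at 3.16, followed by EREG at 1.54 and TGFA at 1.07.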

How the data were processed

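Stable NCI-N87 pools were sequenced in 3 shNC and 3 shScamp1 libraries, by Novogene per the methods of the study. The authors deposited FPKM per gene and library. The submitters' processing notes name HISAT2 2.0.5, featureCounts 1.5.0-p3, DESeq2 1.20.0 and genome build hg38. FPKM times gene length gave whole fragments, called reads here, for 100% of values (tolerance 0.05), and the FPKM already held a scaling between libraries by size factors of 0.914 to 1.11. Values were tested as log2(FPKM + 0.1) with limma 3.58.1 in R 4.3.3 (lmFit, eBayes with trend, two-sided), where the mean over the libraries reached 0.5 FPKM, with Benjamini-Hochberg adjustment over 15556 genes. The script was tested on simulated data. The simulation took its spread from the shNC libraries and held no library apart from its group, as shScamp1 replicate 2 was. Recovered reads were used only with voom, as an alternative, which called 2759 genes, beside 2177. Tables, promoter searches and figures were made in Python 3.11.15, and exon overlaps came from GENCODE 29.

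The genes and lists were chosen with earlier results of these data known. All tested genes were named, untested ones where a library had 10 reads or more, and in the other lists up to 6 called genes by smallest p. HBEGF, CDH1, APP, NOTCH1 and MET are thus only in the plot. Further genes below 10 reads were named after their values were seen. Alternatives were 3 pseudocount or scaling changes, 3 filters, no trend, protein-coding genes only, voom, a replicate block and leaving out each library.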

Additional observations from a re-analysis of the deposited data

How the results depend on the processing

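Under 16 alternatives, ADAM9 and TIMP2 kept their direction and an adjusted p under 0.05 in all 16, with log2 fold changes of 0.77 to 0.86 and 1.04 to 1.16 and adjusted p-values (limma) of 0.000155 to 0.0142 and 0.000104 to 0.0122. The number of metalloproteinase and TIMP genes that passed was 4 of 14 with protein-coding genes only (22.8% of all genes tested) and 4 of 14 with voom (17.7%), ADAMTS13 and ADAMTS14 being added (adjusted p = 0.0434 and 0.0370, and 0.0330 and 0.0288), and it ranged from 2 to 7 with 1 library left out, the 7 of 13 coming without shScamp1 replicate 2 (28.3% of all genes, against 5.25% to 11.6% without any other library). Without shScamp1 replicate 1, ADAMTS14 passed as well (adjusted p = 0.0477). With an absolute log2 fold change above 1 as well, 2 of 27 genes passed with a filter at 0.1 FPKM (2.50% of all genes), 2 of 56 with no filter (1.69%), 2 of 14 with voom (3.46%), and 1 to 2 with 1 library left out (2.34% to 3.49%). The gene added without a filter or at 0.1 FPKM was ADAM23, which enters the 0.1 FPKM filter only through shScamp1. Without a filter, the groups did not overlap for 17 genes, beside 25.2% of all genes with a read. Scaling by total reads took the log2 fold changes of ADAM15, ADAM10 and MMP24 to 0.11, 0.06 and 0.03, and a pseudocount of 1 took those of ADAMTS14, ADAMTS13, ADAM8 and MMP24 to −0.55, −0.48, −0.18 and 0.04. The ADAM17 log2 fold change reversed to −0.0011 when scaled by total reads, and ranged from −0.10 to 0.19 with 1 library left out. Leaving out shScamp1 replicate 3 took that of ADAM8 to −0.41 and that of MMP24 to 0.16, and MMP24 was at 0.03 without shNC replicate 2. Of the other lists, 20 genes passed over all libraries, 12 with no filter (4.81% of all genes), 13 without the trend (12.0%, against 14.0%), and 5 to 34 with 1 library left out (34 without shScamp1 replicate 2, 5 without any one shNC library). With a replicate block the lists had 6 genes and the metalloproteinases and TIMPs still 2 of 14, beside 6.16% of all genes tested. Deviations from the group mean correlated at −0.0351 to 0.0668 between same-numbered libraries and at −0.0841 to 0.0537 between differently numbered ones. With 3 libraries per group and shScamp1 replicate 2 apart from its group, this check cannot decide whether the numbers pair the samples. The cause of these shifts was not tested. Depth limits most the 38 genes under 10 reads, which lay below the filter.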
